A study of Rattus norvegicus with 6 samples.

Results

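The genes described here carry purinergic and adenosine signalling, measured in the IM tip (the terminal part of the renal inner medulla) in diabetic rats and their controls. They were chosen by name and not by a filter on measured values, although earlier results of these data were known. They are the ATP-gated channels P2rx4 and P2rx7 and the G protein-coupled nucleotide receptors P2ry1, P2ry2, P2ry4 and P2ry6. The adenosine receptors Adora1 and Adora2b and the ectonucleotidases Entpd1 and Entpd2 complete the set. Of these 10 genes, 9 had a row of exactly that name among the 27321 features of the table, and Entpd1 was not analysed here. All rats were male Sprague-Dawley rats of 3 months. Control rats (n = 3 libraries) received vehicle and STZ rats (n = 3 libraries) received streptozotocin (STZ, which destroys the insulin-secreting beta cells) at 62.5 mg/kg into the tail vein, and tissue was collected from both groups 15 days later. STZ diabetes is a model of insulin deficiency with high blood glucose, which the authors checked by measuring blood glucose on the day after injection.

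Extracellular ATP and its breakdown products act on the tubule and on the cells around it. ATP opens the P2rx channels, which pass calcium, whereas ATP, ADP, UTP or UDP activate the P2ry receptors through G proteins. Ectonucleotidases at the cell surface strip phosphates from these nucleotides, the ecto-enzyme encoded by Nt5e releases adenosine from AMP, and adenosine then acts on the Adora receptors until it is taken up or degraded. In the collecting duct P2ry2 is known for opposing the action of vasopressin on water permeability, and P2rx4, P2rx7 and P2ry6 are also known from macrophages.

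No member passed the test between the groups. By limma, 0 of the 8 members tested had an adjusted p under 0.05, and 0 had an unadjusted p under 0.05, against 2.10% of the 13486 features tested for the adjusted and 14.7% for the unadjusted p. The groups overlapped in every member, while 20.3% of the features tested had groups that did not overlap. The log2 differences (STZ minus Control) of the 8 members ran from −0.35 to 0.65 with a median of 0.30, beside a median of 0.01 over all features tested. With standard errors between 0.30 and 0.84 on that scale, a change of 2-fold lay inside the 95% interval of 7 of the 8, and for P2ry2 the interval ran from 0.569 to 1.43-fold. In a wider list of 49 genes drawn up around the same pathway, 2 passed the test. P2rx6, another ATP-gated channel, rose in STZ rats. Dpp4, a surface peptidase placed in the list under adenosine handling, fell.

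The promoters of P2rx6 and Dpp4 are shown because these 2 genes passed, and that of Entpd2 because it had the smallest p of the members. Each is the stretch of 250 bases before the annotated start in RefSeq (build GRCr8, a later build than the rn4 of the counts), written 5′ to 3′ on the strand of the gene. Of the 9 members with a row, 8 had an entry. Capitals mark matches on either strand to 4 motifs, and a window without capitals held no match. The TATA box was searched as TATAAA. The CCAAT box was searched by the letters of its name. For the GC box the letters GGGCGG were used. For the E-box the search was for CACGTG. The annotated start need not be the one used in this tissue.
P2rx6, chr11:96954204-96954453, minus strand: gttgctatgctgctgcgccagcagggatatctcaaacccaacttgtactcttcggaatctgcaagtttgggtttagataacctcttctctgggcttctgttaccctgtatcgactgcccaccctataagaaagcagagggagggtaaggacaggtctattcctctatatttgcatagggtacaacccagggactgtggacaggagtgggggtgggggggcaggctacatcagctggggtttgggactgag
Dpp4, chr3:67452423-67452672, minus strand: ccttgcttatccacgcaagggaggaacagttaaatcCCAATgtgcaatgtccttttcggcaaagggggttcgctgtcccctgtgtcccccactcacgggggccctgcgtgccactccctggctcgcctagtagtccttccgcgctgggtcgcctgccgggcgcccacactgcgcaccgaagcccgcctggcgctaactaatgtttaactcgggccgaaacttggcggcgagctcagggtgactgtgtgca
Entpd2, chr3:28611566-28611815, plus strand: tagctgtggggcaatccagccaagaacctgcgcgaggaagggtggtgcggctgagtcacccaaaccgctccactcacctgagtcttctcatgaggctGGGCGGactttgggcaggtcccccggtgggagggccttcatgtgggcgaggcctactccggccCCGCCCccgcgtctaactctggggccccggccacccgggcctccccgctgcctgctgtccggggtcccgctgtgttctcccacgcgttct
The P2rx6 window held none of the 4 motifs, the Dpp4 window held 1 CCAAT box that starts 214 bases before the start, and the Entpd2 window held 2 GC boxes that start 153 and 90 bases before it. Of the 33469 promoters of the same length, 12.9% held a TATA box, 34.0% a CCAAT box, 30.5% a GC box and 5.59% an E-box. The share of G and C was 52.4% in P2rx6, 62.4% in Dpp4 and 68.8% in Entpd2, beside a median of 51.2% over all promoters.

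The values are normalized counts, the reads of a feature divided by a size factor for its library, and they are not divided by transcript length, so levels are compared between libraries and not between genes. The 3 values of a group are listed in the order of replicates 1, 2 and 3. Reads on features numbered from 3412311 to 5575171 per library, and 1 read was worth from 0.763 to 1.11 normalized counts. A gene was taken to be at the floor in a library that held 3 reads or fewer, a limit that covers counting error only, since the cDNA was amplified by PCR without molecular identifiers. As a measure of background, the 95th percentile of 836 olfactory receptor genes was 2.05, 6.29 and 10.02 normalized counts in the controls against 1.86, 5.93 and 9.03 in the STZ libraries. By the column names, lane 3 carried every control library and lanes 7, 6 and 8 carried 1 STZ library each, and lane and condition cannot be told apart. The labels number the libraries without saying that each came from a separate rat, and p-values measure the spread between libraries. Aqp2, the vasopressin-regulated water channel of principal cells, had from 2137 to 7413 normalized counts in the 6 libraries, and 4 of 5 markers of these cells had a row, each above the floor. In whole tissue, fewer cells of a type and less RNA per cell cannot be told apart.

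**Figure D1:**
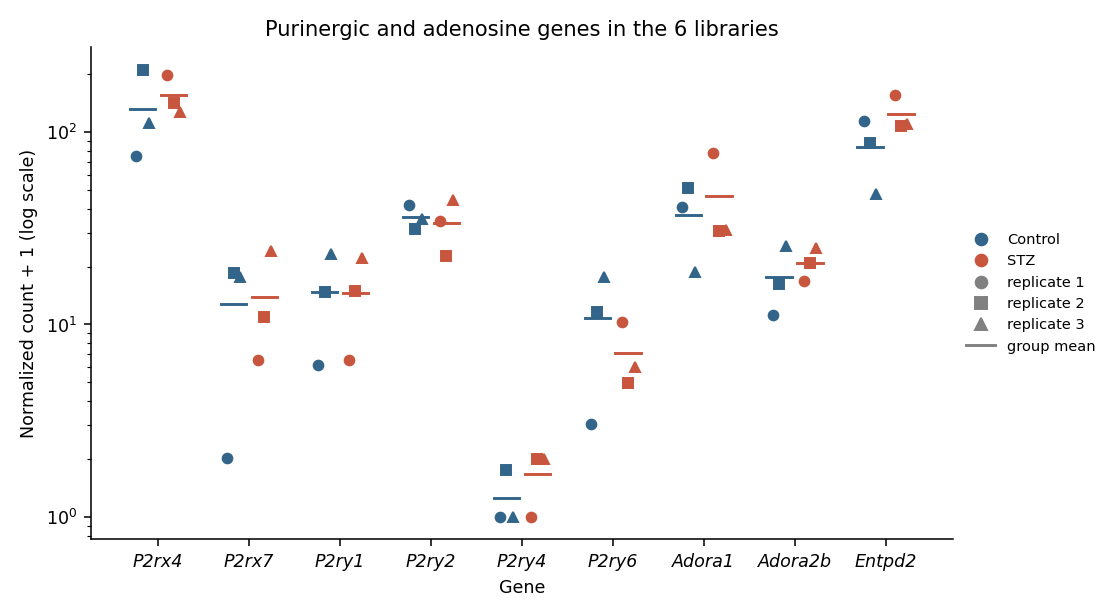
Normalized count plus 1 (log axis) of the 9 genes with a row, by gene. Blue marks are the 3 control and red marks the 3 STZ libraries, symbols give the replicate number and short lines the group means. The groups overlap in every gene, and P2ry4 lies at 1.004 normalized counts or less in each library.

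P2rx4 encodes an ATP-gated cation channel found in epithelia and in macrophages, and it lies on chromosome 12 of rn4 from 34943902 to 34961492. It had 73.8, 209.8 and 110.2 normalized counts in the controls against 197.8, 140.5 and 125 in the STZ libraries. The STZ values all fell between the lowest and the highest control value. The means were 131 ± 70.4 and 155 ± 38.2 (SD, n = 3 each), with a log2 difference of 0.34 (SE 0.34, adjusted p = 0.747 by limma). Without control replicate 1 the difference was −0.0042 on the log2 scale, a change of sign, and without control replicate 2 it was 0.74 (adjusted p = 0.368 by limma).

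P2rx7, the channel that opens at high ATP and is best known from macrophages, lies on the same chromosome from 35074217 to 35117152. It had 1.03, 17.5 and 16.7 normalized counts in the controls against 5.57, 9.89 and 23.1 in the STZ libraries. Control replicate 1, with a single read, lay under the background percentile of its library, and the other 5 libraries lay above theirs. The log2 difference was 0.46 (SE 0.84, adjusted p = 0.896 by limma), it was −0.60 without control replicate 1 and −0.04 without STZ replicate 3, and its 95% interval ran from 0.384 to 4.92-fold. A further row, which joins P2rx7 with APC5_RAT, held 1 read in all 6 libraries together.

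P2ry6, the receptor for UDP, lies on chromosome 1 from 158381127 to 158406783. The controls held 2.05, 10.7 and 16.7 normalized counts of it, the STZ libraries 9.29, 3.96 and 5.02. The highest and the lowest value were both in the control group, and only 3 of the 6 libraries lay above background. The log2 difference of −0.35 (SE 0.72, adjusted p = 0.911 by limma) became 0.18 without control replicate 3 and −1.09 without control replicate 1, the latter with an adjusted p of 0.515 by limma.

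These 3 receptors were lowest in control replicate 1, as were P2ry1 and Adora2b, which makes 5 of the 8 members tested. Of the 6 macrophage and leukocyte markers, 5 had their lowest control value in the same library, and 4 had their lowest value of all 6 libraries there. Csf1r, the receptor that macrophages need for survival, had 47.2, 153 and 145 normalized counts in the controls against 142, 106 and 116 in the STZ libraries. The summed level of the 6 markers was 618 in control replicate 1 and from 1545 to 2013 in the other controls, against 1137 to 1976 in STZ rats. None of the 6 passed the test between the groups, and none was at the floor in every library. Control replicate 1 also had the lowest background percentile of the controls, 2.05 normalized counts against 6.29 and 10.02. It held the fewest features with a read among the controls (18268). STZ replicate 1 was lower on both measures, with 1.86 normalized counts and 18212 features. There P2rx4, P2ry6 and Csf1r had their highest STZ value and P2rx7 its lowest. P2rx4 stood at 11.0 to 107 times the background percentile of each library, whereas P2rx7 and P2ry6 fell to 0.5 and 0.556 times it in their lowest library. The part of macrophages and leukocytes, or of background, in the receptor values was not tested.

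**Figure D2:**
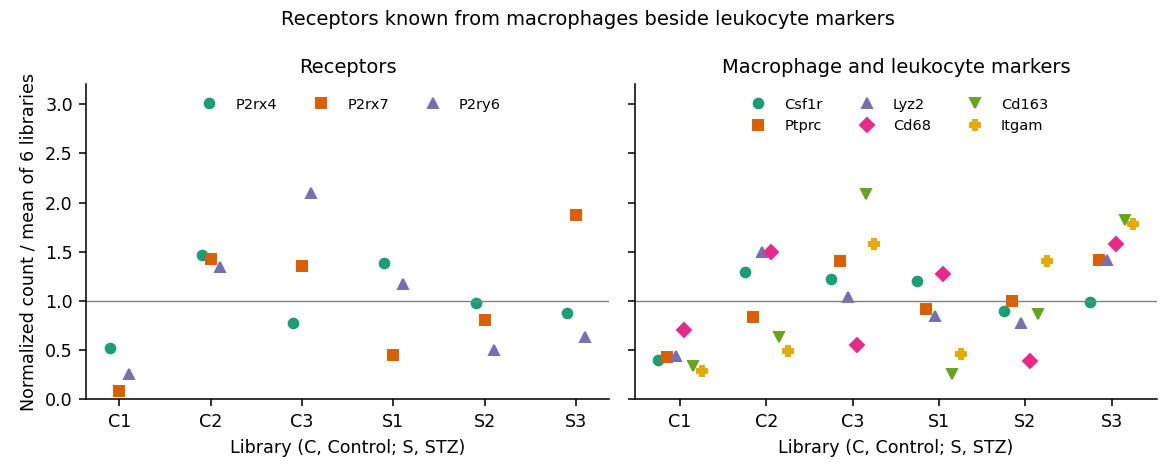
Each gene's normalized count divided by its mean over the 6 libraries, by library, for 3 receptors (left) and 6 macrophage and leukocyte markers (right). In control replicate 1 (C1) all 9 genes lie under their mean, and the STZ libraries (S1 to S3) do not stand apart from the other controls.

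P2ry1, a receptor for ADP, lies on chromosome 2 from 150460360 to 150465862. It had 5.13, 13.7 and 22.3 normalized counts in the controls against 5.57, 13.8 and 21.1 in the STZ libraries. Libraries of the same replicate number held nearly the same level in both groups, and the means, 13.7 ± 8.57 in control and 13.5 ± 7.76 in STZ rats (SD over 3 libraries), lay far closer than libraries within a group did. The log2 difference was 0.01 (SE 0.60, adjusted p = 0.997 by limma), with a sign that turned under 2 of the 3 other scalings (−0.017 at equal library totals, −0.047 after quantile normalization). Set against the olfactory receptor percentile of each library, P2ry1 stood at 2.18 to 3.00 times that background in all 6 libraries. The part of background in these values was not tested.

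P2ry2, the receptor for ATP and UTP, lies on chromosome 1 from 158440061 to 158446040. The controls held 41.0, 30.5 and 34.5 normalized counts, the STZ libraries 33.4, 21.8 and 43.2. The control values lay within the range of the STZ values, and every library was above background. Control libraries averaged 35.3 ± 5.30 and STZ libraries 32.8 ± 10.7 (SD, n = 3 each), a log2 difference of −0.15 (SE 0.30, adjusted p = 0.911 by limma), which was 0.11 without STZ replicate 2. P2ry2 had the narrowest interval of the members tested.

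P2ry4, a receptor for UTP, lies on chromosome X from 88589533 to 88590947. It was at 0 in control replicates 1 and 3 and in STZ replicate 1, and held 0.763, 0.989 and 1.004 normalized counts in control replicate 2 and STZ replicates 2 and 3, a single read each. It was at the floor in all 6 libraries, was not tested, and no difference between the groups was detectable at this depth.

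**Figure D3:**
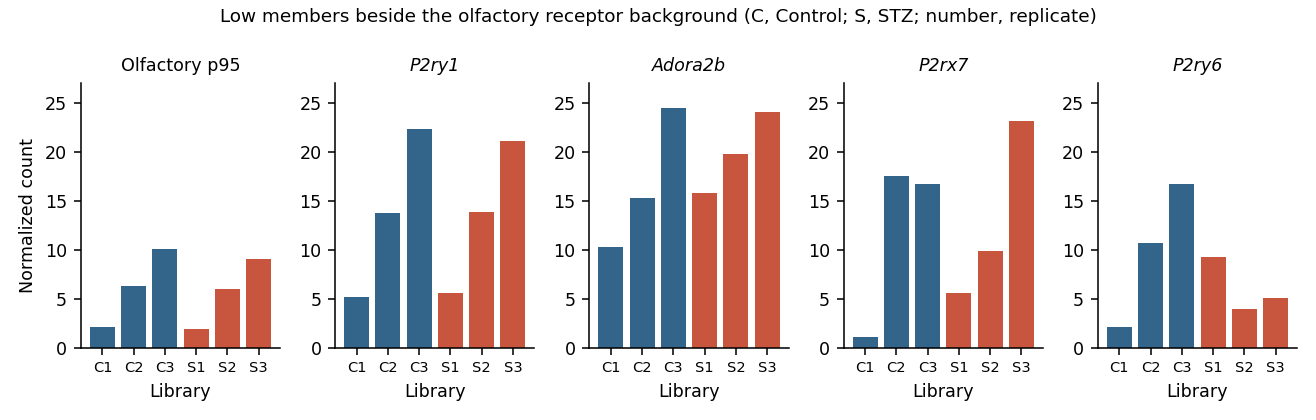
Normalized counts by library (C, Control; S, STZ; the number is the replicate) of the olfactory receptor background (95th percentile) and of P2ry1, Adora2b, P2rx7 and P2ry6. Bars start at 0. P2ry1 has the steps of the background in both groups, whereas P2ry6 has its highest bar at 16.7 in control replicate 3 and 5.02 in STZ replicate 3.

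Adora1, the adenosine receptor that lowers cAMP through Gi proteins, lies on chromosome 13 from 47159041 to 47193163. It had 40.0, 50.3 and 17.8 normalized counts in the controls against 77.1, 29.7 and 30.1 in the STZ libraries. Only STZ replicate 1 lay above all control values, and the other STZ libraries lay below the control replicates 1 and 2. The log2 difference of 0.30 (SE 0.44, adjusted p = 0.86 by limma) was −0.14 without STZ replicate 1 and −0.12 without control replicate 3. The 4 principal cell markers summed to their highest level in STZ replicate 1 (35361 normalized counts) and to their lowest in control replicate 3 (10761), as the water channels Aqp2 and Aqp3 did singly. The other markers followed in part, since Aqp4 was highest in control replicate 1 and Scnn1g, a sodium channel subunit, was lowest in control replicate 2. The part of the principal cells in the Adora1 values was not tested. A row that joins Adora1 with Mybph held 1 read in all.

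Adora2b, the low-affinity adenosine receptor that raises cAMP, lies on chromosome 10 from 48421583 to 48437966. Its values were 10.3, 15.3 and 24.5 normalized counts in the controls against 15.8, 19.8 and 24.1 in the STZ libraries. All STZ values lay within the control range and every library was above background, with the lowest value of both groups in replicate 1 and the highest in replicate 3. The log2 difference was 0.30 (SE 0.39, adjusted p = 0.832 by limma), and the interval ran from 0.684 to 2.23-fold. The difference was 0.018 on the log2 scale without control replicate 1 and 0.61 without control replicate 3.

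Entpd2 encodes an ectonucleotidase that turns ATP mainly into ADP, and it lies on chromosome 3 from 3564379 to 3569800. It had 113.8, 86.2 and 46.7 normalized counts in the controls against 154, 107 and 109 in the STZ libraries. All STZ libraries lay above control replicates 2 and 3, and control replicate 1 lay above 2 of them. The means were 82.2 ± 33.7 and 123 ± 26.6 (SD, n = 3 each), and the log2 difference of 0.65 (SE 0.31) had the smallest p of the members (unadjusted p = 0.0603 and adjusted p = 0.37 by limma), with an interval from 0.977 to 2.52-fold. Leaving out each library in turn, the difference stayed between 0.29 (without control replicate 3) and 0.93 (without control replicate 1). A two-sided exact permutation test over the libraries gave p = 0.3, where 0.1 is the smallest that 3 against 3 allow.

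Over the 6 libraries, the features whose log2 values followed those of Entpd2 most closely were Mrps35 (Pearson r = 0.998), Myo1d (r = 0.995) and F1M6C2_RAT (r = 0.994). Those that ran most opposite to it were Uhrf2 (r = −0.993), Mep1a (r = −0.991) and Supt6h (r = −0.988). These are the extremes of 13486 features over 6 libraries, in each of which all features share 1 size factor and 1 lane, and they are given as a description only. With a pseudocount of 5 in place of 1, the same 6 features were the extremes.

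**Figure D4:**
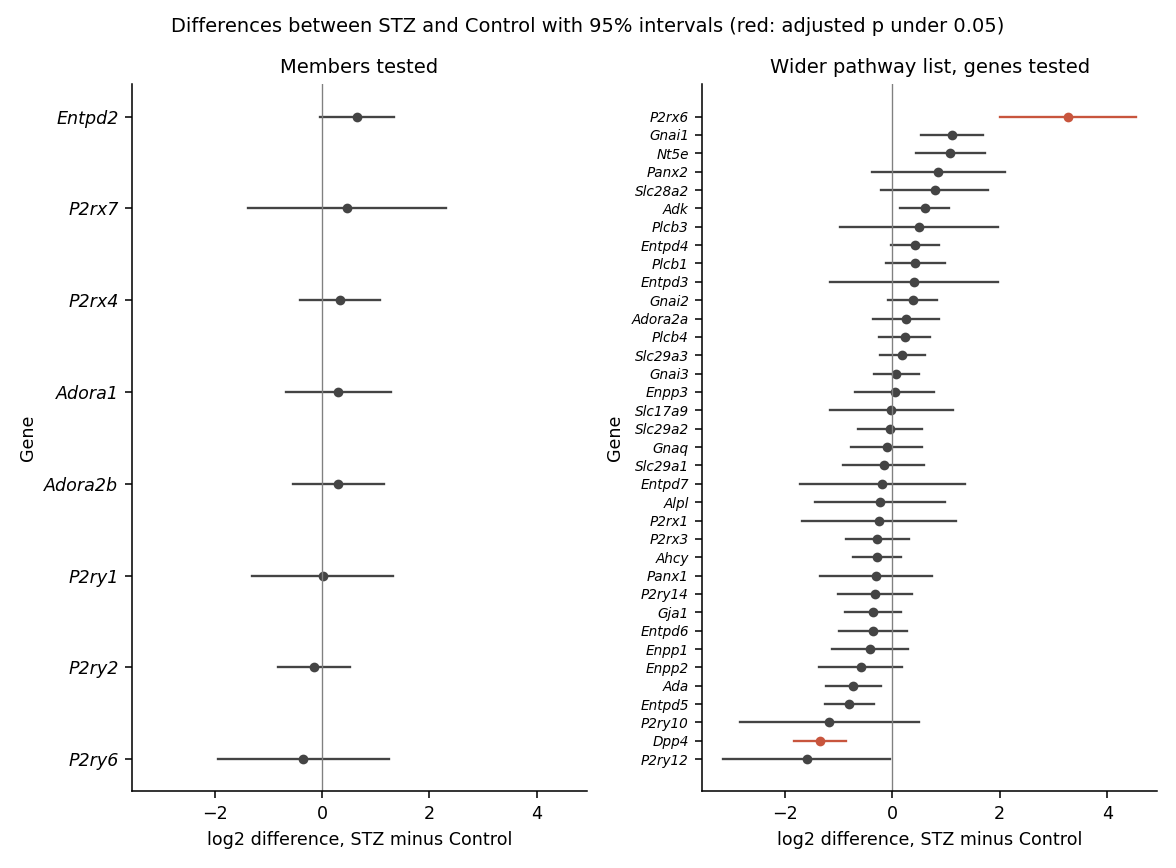
Log2 difference (STZ minus Control) of each gene tested, with its 95% interval by limma, for the 8 members (left) and the 36 genes of the wider list (right). Red marks the genes with an adjusted p under 0.05, P2rx6 at 3.27 and Dpp4 at −1.34, and the intervals of all 8 members cross 0.

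The wider list held the other receptors of these families, enzymes of nucleotides and adenosine, nucleoside carriers and ATP release channels. It also held the G proteins and phospholipases downstream. Dpp4, a peptidase that was placed with the adenosine enzymes, does not itself act on adenosine. Of the 49 genes of the list, 47 had a row and 36 were tested. By limma 1 rose and 1 fell, against 1.17% of all features tested that rose and 0.927% that fell. The groups did not overlap in 11 of the 36, of which 7 were higher and 4 lower in STZ rats, beside the 20.3% of all features. The median log2 difference of the list was −0.08, and 8 genes had an unadjusted p under 0.05 (14.7% of all features).

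Among the 11 other receptors, of which 7 were tested, P2rx6 rose and none fell. P2rx6 encodes an ATP-gated channel subunit that mostly assembles with other subunits of the family, and lies on chromosome 11 from 85431258 to 85441174. It had 1.03, 2.29 and 3.34 normalized counts in the controls against 46.4, 35.6 and 14.1 in the STZ libraries. Every control library was at the floor, with 1, 3 and 3 reads, and every STZ library was above both the floor and the background percentile. Its control mean of 2.22 lay under the minimum mean of 5 that a feature needed to be tested. P2rx6 was therefore tested only through its STZ values, with a mean of 32.0. The fitted log2 difference was 3.27 (SE 0.58, adjusted p = 0.0177 by limma), a value that depends on the pseudocount. The paper's list of the genes most raised in STZ rats, from DESeq, does not hold P2rx6. That test covered only genes with enough reads. Over the pooled reads of each group, 100 in STZ and 7 in control rats, the ratio after scaling by depth was 14.8 with an exact 95% interval from 6.90 to 37.6 that covers counting error only and takes the smallest step of each library as 1 read. The adjusted p by limma was 0.0587 without control replicate 2, 0.0921 without STZ replicate 1 and 0.129 without STZ replicate 2, so the call rested on these libraries, and it was also lost without the filter on low values (0.166) or without the variance trend (0.0789), while the difference was 2.25 or more in all 16 alternatives that tested the gene.

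The nearest genes on both sides of P2rx6 were read as well. Slc7a4, a member of the cationic amino acid transporter family that lies 1041 bases away, had 51.3, 70.2 and 85.7 normalized counts in the controls against 123, 147 and 88.3 in the STZ libraries, without overlap of the groups but without passing the test (log2 difference 0.79, adjusted p = 0.172 by limma). D3ZZW7_RAT, 795 bases away on the other side, had from 0 to 6.68 normalized counts and was not tested. Of the 4 urothelial markers found, 2 rose in STZ rats, among them Upk3a, a structural protein of the urothelial surface (log2 difference 3.30). Summed, the 4 had 79.3 to 124 normalized counts in the controls and 420 to 501 in the STZ libraries. In the STZ libraries, though not in the controls, most of the sum came from Upk3a. Its means were 35.3 in the controls and 344 in the STZ libraries. Upk1a had a log2 difference of 0.04 (adjusted p = 0.979 by limma) and was lowest, at 14.9 normalized counts, in STZ replicate 1, where P2rx6 was highest. The part of these cells in the P2rx6 values was not tested.

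The other receptors of the list did not pass. P2ry12, the ADP receptor known from platelets and microglia, had 7.18, 9.15 and 12.2 normalized counts in the controls against 1.86, 5.93 and 1.004 in the STZ libraries. Although no STZ value reached the lowest control value, the log2 difference of −1.60 (SE 0.71) did not pass (adjusted p = 0.321 by limma), and 2 of the STZ libraries were at the floor. P2ry14, the receptor for UDP-sugars that is known from intercalated cells, had 195, 80.9 and 119 normalized counts in the controls against 78.0, 129 and 94.4 in the STZ libraries (log2 difference −0.33, adjusted p = 0.731 by limma). Its highest value was in control replicate 1, as was that of the intercalated cell proton pump subunit Atp6v1g3, at 1832 normalized counts. Of the 4 intercalated cell markers 3 fell in STZ rats, with a summed level of 969 to 2337 in the controls and 393 to 477 in the STZ libraries. Without control replicate 1 the P2ry14 difference was 0.00074, and the part of intercalated cells in it was not tested. P2rx2, P2ry13 and Adora3 were at the floor in all 6 libraries.

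Of the 11 enzymes that act on nucleotides, 10 were tested and none passed by limma. An unadjusted p under 0.05 was found for 2 of the 10, beside 14.7% of all features tested. The groups did not overlap in 3 of the 10, beside 20.3% of all features tested. Nt5e, which makes adenosine from AMP, lies on chromosome 8 from 93591279 to 93635444 and had 64.6, 34.3 and 55.7 normalized counts in the controls against 123, 129 and 76.3 in the STZ libraries. The groups did not overlap, and the log2 difference of 1.08 (SE 0.29) did not pass (adjusted p = 0.0953 by limma). Entpd5, a nucleoside diphosphatase of the endoplasmic reticulum, lies on chromosome 6 from 108439838 to 108469757 and had 127, 106.8 and 95.7 against 64.1, 62.3 and 60.2 normalized counts, also without overlap (log2 difference −0.80, SE 0.21, adjusted p = 0.0788 by limma). Entpd5 passed in 3 of 17 alternatives and Nt5e in 0. Entpd4, of the Golgi apparatus and lysosomes, had a log2 difference of 0.43 (SE 0.20, adjusted p = 0.369 by limma).

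Of the 4 genes tested under adenosine handling, Dpp4 fell and none rose. Dpp4 lies on chromosome 3 from 44283078 to 44360220 and had 100.5, 90.0 and 115 normalized counts in the controls against 39.9, 44.5 and 34.1 in the STZ libraries. The groups lay far apart, with a highest STZ value of 44.5 and a lowest control value of 90.0. The means of 102 ± 12.4 and 39.5 ± 5.20 (SD, n = 3 each) gave a log2 difference of −1.34 (SE 0.22, adjusted p = 0.0127 by limma). Dpp4 passed in 15 of 17 alternatives and in all 6 that left out a library, and missed the threshold without the filter on low values (adjusted p = 0.0602) and without the variance trend (adjusted p = 0.084 by limma). Dpp4 is abundant in proximal tubules, of which 2 markers had a row, Lrp2 and Slc22a6. Their summed level overlapped between the groups, with 14.4 to 55.7 normalized counts in the controls and 17.6 to 55.2 in the STZ libraries. Both markers rose from replicate 1 to replicate 3 in each group, as the olfactory receptor background did. The part of background in their values was not tested. Summed markers of some other cells were lower in every STZ library than in any control, as Dpp4 was. The 4 endothelial markers, of which 2 fell, summed to 6168 to 7982 in the controls and 3022 to 3358 in the STZ libraries. Most of that sum came from Emcn, with means of 5510 in the controls and 2095 in the STZ libraries. Pecam1 overlapped between the groups (log2 difference 0.04, adjusted p = 0.972 by limma). The 3 thick ascending limb markers, of which 2 fell, summed to 1099 to 1886 and to 209.8 to 597, and the intercalated cell markers were lower too, at the levels given with P2ry14. Other sums went the other way or overlapped. The 3 fibroblast, pericyte and smooth muscle markers, of which 1 rose, summed to 622 to 875 in the controls and 1127 to 1431 in the STZ libraries. The urothelial sum and Aqp2, the 1 inner medullary collecting duct marker found, were also higher in every STZ library. The sums of principal cell, thin limb and macrophage and leukocyte markers overlapped. The part of any of these cells in the Dpp4 values was not tested.

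Ada, adenosine deaminase, had 95.3, 77.0 and 76.8 normalized counts in the controls against 61.3, 48.5 and 41.2 in the STZ libraries. Adk, adenosine kinase, which returns adenosine to AMP inside the cell, had 495, 399 and 463 against 808, 741 and 534. The groups did not overlap in either gene, Ada being lower and Adk higher in every STZ library. Such lack of overlap was found in 3 of the 4 genes tested under adenosine handling, beside 20.3% of all features tested. The log2 differences were −0.72 (SE 0.23) for Ada and 0.60 (SE 0.20) for Adk, with adjusted p-values of 0.157 and 0.18 by limma, and neither passed in any of 17 alternatives.

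**Figure D5:**
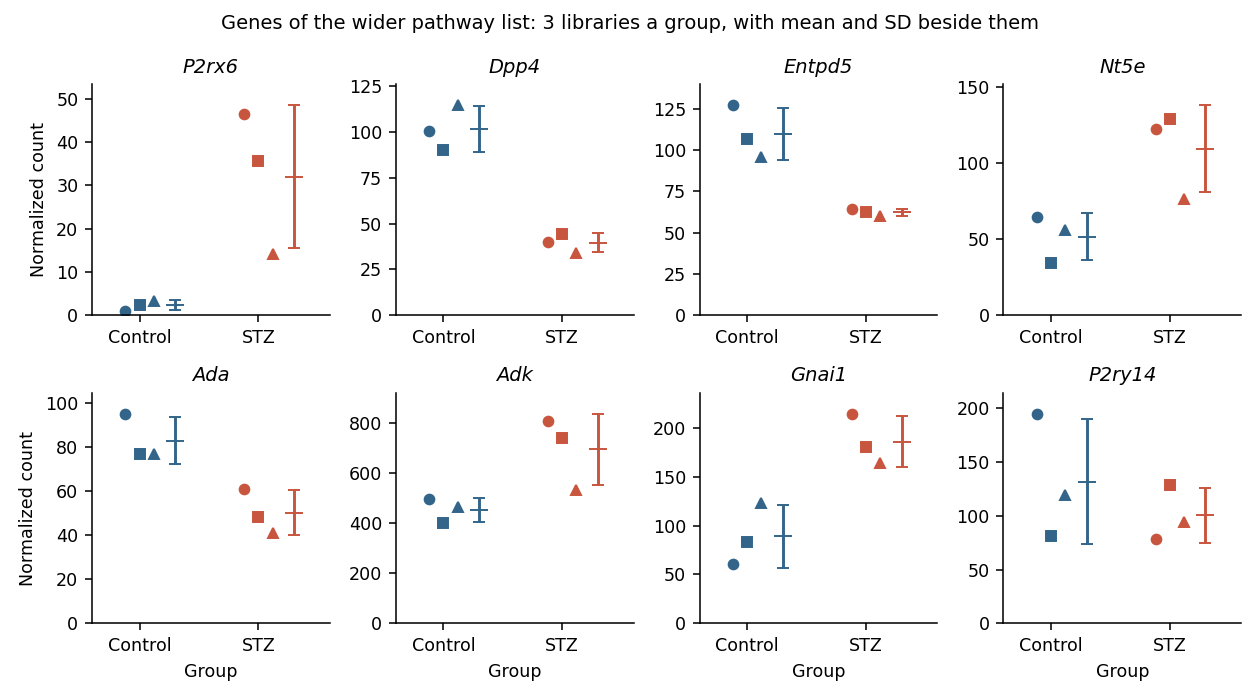
Normalized counts of 8 genes of the wider list in the 3 control (blue) and 3 STZ (red) libraries. Circles, squares and triangles are replicates 1, 2 and 3, the line and bar beside them give the mean and SD, and every axis starts at 0. The groups overlap only in P2ry14. The other genes drawn are among those with the smallest p of the list, so their lack of overlap goes with that choice. Over the whole list the groups did not overlap in 11 of the 36 genes tested, beside 20.3% of all features tested.

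The carriers, release channels and downstream proteins held no gene that passed by limma. Slc29a3, a nucleoside carrier of internal membranes, averaged 214 ± 27.7 normalized counts in the controls and 243 ± 26.1 in the STZ libraries (SD over 3), and the 4 carriers tested had adjusted p-values of 0.47 or more. Gja1, a connexin whose hemichannels can release ATP, had 565 ± 120 and 443 ± 120 (log2 difference −0.36, adjusted p = 0.554 by limma). Gnai1, the G protein subunit that couples inhibitory receptors such as Adora1 to adenylyl cyclase, had 60.5, 83.1 and 124 normalized counts in the controls against 214, 180.0 and 164 in the STZ libraries. Every STZ library lay above every control, and the log2 difference of 1.11 (SE 0.26) did not pass (adjusted p = 0.059 by limma), though it did in 4 of 17 alternatives. Gnai2 had a difference of 0.38 (SE 0.21, adjusted p = 0.444 by limma) and Plcb1, a phospholipase C, one of 0.43 (SE 0.25, adjusted p = 0.483 by limma).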

How the data were processed

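RNA of the IM tip of control and STZ rats was made into cDNA (3 libraries a group) with a PCR-based kit and sequenced on a HiSeq2000. Per the labels and the methods of the study, reads were aligned to rn4 with STAR 2.3.1t, uniquely mapped reads were counted per gene and counts were scaled with DESeq (1.16.0). The authors deposited this signal, a count divided by 1 size factor per library, while which program counted the reads, and whether by strand, is not given in the sources used here. Columns were matched to samples through the sample descriptions.

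In each library 100.0% of the values were whole multiples of the smallest (relative tolerance 1e-06), and this step was taken as 1 read. In STZ replicates 2 and 3 the step lies so near 1 that this reading is less certain, so reads served for floors and 1 counting interval and for no count test. Groups were compared on log2(value + 1) by limma 3.58.1 (R 4.3.3), moderating variances towards a trend on mean level, for features averaging at least 5, and p-values were adjusted by Benjamini-Hochberg over all 13486 features tested (threshold 0.05). Fold changes on this scale understate those of low genes. Single values had a two-sided exact permutation test, which cannot reach 0.05 because its smallest p with 3 against 3 libraries is 0.1. P2rx6 and Dpp4 each had p = 0.1 by this permutation test. The fit was tested on simulated data. Alternatives were other pseudocounts, filters and scalings (TMM from edgeR 4.0.16), other variance moderation, a replicate block and each library left out. The genes named are all members and, of the wider list, those that passed, the 10 with the smallest p and the one with most reads in each role. The 3 features most like and the 3 least like Entpd2 and markers of a cell type that moved with a member are also named. The neighbours of P2rx6, the markers beside list genes and the receptors listed at the floor were picked once their values were known. Members and lists were chosen with earlier results of these data known. P2RX3_RAT and ENPP2_RAT were taken as P2rx3 and Enpp2, and Pnp and Gnas were not analysed here. Python 3.11.15, pandas 2.3.3, numpy 2.4.6, scipy 1.17.1 and matplotlib 3.10.9 were used.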

Additional observations from a re-analysis of the deposited data

How the results depend on the processing

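No member passed in any of the 17 alternatives. Of the differences of single members, 120 kept their sign and 12 turned it, none of them past the threshold: P2ry1 at equal library totals (−0.017) and after quantile normalization (−0.047), and otherwise where a library was left out, when P2ry1 ran from −0.52 to 0.50, P2rx7 from −0.60 to 1.002, Adora1 from −0.14 to 0.60, P2rx4 from −0.0042 to 0.74, P2ry2 from −0.37 to 0.11, P2ry6 from −1.09 to 0.18 and, of the wider list, P2ry14 from −0.63 to 0.00074. The count of list genes that passed was 2 and became 0 without a filter (P2rx6 adjusted p = 0.166, Dpp4 0.0602 by limma), 0 without the variance trend (0.0789 and 0.084), 4 after quantile normalization and 1 (without control replicate 2, STZ replicate 1 or STZ replicate 2) to 3 with each library left out. For all features the count was 283 and became 98 without a filter, 522 after quantile normalization, 31 without the variance trend and 86 (without STZ replicate 2) to 341 (without control replicate 3) with each library left out. The planned edgeR and DESeq2 fits on whole reads were not run, because in 2 STZ libraries the smallest step lies so near 1 normalized count that its reading as 1 read is less certain.

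Same-numbered control and STZ libraries deviated together with r = 0.395, −0.061 and 0.323 over 9315 features. As 1 of the 3 was under 0.1, the numbers were not taken to pair the libraries, although the other 2 were the highest of all 9 pairs of a control with an STZ library. The olfactory receptor background also rose from replicate 1 to replicate 3 in both groups. With the replicate number as a block 561 features and 3 list genes passed, Gnai1 among them. For Entpd2 that block gave an unadjusted p of 0.017 and an adjusted p of 0.146 by limma. The standard error went from 0.60 to 0.35 for P2ry1 and from 0.34 to 0.32 for P2rx4. P2ry4 was at the floor in every library, and P2rx7 and P2ry6 were at the floor in control replicate 1.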
